A study of Mus musculus with 9 samples.

Results

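The genes described are 10 immediate early genes, *Fos*, *Fosb*, *Junb*, *Egr1*, *Nr4a1*, *Arc*, *Npas4*, *Ier2*, *Btg2* and *Dusp1*, out of the 25239 gene names listed in each of 9 retina libraries. They were taken by symbol and not by a cut on their values, though earlier results of these data were known. All 10 were among the 15198 genes tested, those with a mean of at least 1 TPM. TPM is a level per length of transcript, scaled to the same total in every library. The study asked whether a knock-in allele at *Rbpms*, a gene for an RNA-binding protein of retinal ganglion cells, changes the retinal transcriptome. Whole retinas were collected from littermate mice on the C57BL/6J background at P42, and both retinas of a mouse made up a library. The 3 groups were +/+ mice without the allele, *Rbpms*-CreERT2/+ mice with 1 copy (Cre/+) and *Rbpms*-CreERT2/CreERT2 mice with 2 copies (Cre/Cre), with 3 mice each. The allele carries a P2A-CreERT2 cassette joined in frame to the end of the RBPMS coding sequence, so that CreERT2, a recombinase that tamoxifen switches on, is made wherever the *Rbpms* promoter is active. The labels name genotype, age and strain for these mice and no tamoxifen. The mice were housed under a light-dark cycle, and the handling, the light and the time of day at collection are not given in the sources used here.

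Immediate early genes are transcribed within minutes of a stimulus without new protein synthesis, from promoters on which serum response factor and CREB wait for calcium and MAP kinase signals. Many of their products are transcription factors that start later waves of transcription, others are synaptic proteins or phosphatases that feed back on the signal. Their mRNAs are short-lived, and in the retina they are known to respond to light, injury and handling of the eye.

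The 250 bases before the transcription start of *Fos*, *Nr4a1*, *Dusp1* and *Npas4* are shown because *Fos*, *Nr4a1* and *Dusp1* had the same 4 lowest libraries, while *Npas4* had others. Sequences are those of RefSeq (GRCm38.p6), 5′ to 3′ in the direction of transcription, at chr12:85473640-85473889 (+), chr15:101266596-101266845 (+), chr17:26508473-26508722 (-) and chr19:4989972-4990221 (-). Capitals mark the CRE core TGACG, or CGTCA where it lies on the other strand, part of the sequence that CREB binds.
Fos: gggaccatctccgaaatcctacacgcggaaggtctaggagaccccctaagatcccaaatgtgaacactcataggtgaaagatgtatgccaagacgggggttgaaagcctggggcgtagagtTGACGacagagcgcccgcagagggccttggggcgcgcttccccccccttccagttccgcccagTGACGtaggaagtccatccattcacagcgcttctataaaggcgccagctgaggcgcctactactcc
Nr4a1: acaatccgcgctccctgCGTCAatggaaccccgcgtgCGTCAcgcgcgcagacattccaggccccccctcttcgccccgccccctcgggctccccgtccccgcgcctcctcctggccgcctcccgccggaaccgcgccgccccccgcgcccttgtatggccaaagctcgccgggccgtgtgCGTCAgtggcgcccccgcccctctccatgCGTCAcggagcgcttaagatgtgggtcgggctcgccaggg
Dusp1: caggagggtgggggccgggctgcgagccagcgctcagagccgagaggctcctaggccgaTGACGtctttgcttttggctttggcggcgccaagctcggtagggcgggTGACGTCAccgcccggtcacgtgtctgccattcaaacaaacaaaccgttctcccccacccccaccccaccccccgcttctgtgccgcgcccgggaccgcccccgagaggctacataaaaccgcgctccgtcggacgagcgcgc
Npas4: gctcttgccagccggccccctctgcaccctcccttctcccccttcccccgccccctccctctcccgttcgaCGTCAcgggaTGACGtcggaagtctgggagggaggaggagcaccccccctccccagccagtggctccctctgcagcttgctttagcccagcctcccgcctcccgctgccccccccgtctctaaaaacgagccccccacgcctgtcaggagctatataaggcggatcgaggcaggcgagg
The core, searched on both strands, stood in all 7 of the genes matched by symbol (these 4, *Fosb*, *Junb* and *Btg2*) against 17.9% of 32536 promoters of the same length. *Fos* held 2 cores, *Nr4a1* 4, *Dusp1* 3 and *Npas4* 2, so *Npas4* carried as many as *Fos*. The full palindrome TGACGTCA, which contains the core on both strands, stood in *Btg2* and *Dusp1* against 1.56% of promoters, and in *Dusp1* it is the run of 8 capitals. The letters TATAA stood in *Fos* and *Npas4* against 22.7% of promoters. Neither the CArG box of serum response factor (1.48% of promoters) nor the AP-1 letters TGACTCA (4.45%) stood in any of the 7 windows. The CArG box was searched as the exact letters CCWWWWWWGG, where W is A or T. Sites with a mismatch or outside the 250 bases were not searched, so these promoters may still hold such sites. *Arc*, *Egr1* and *Ier2* were not matched.

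The libraries held 4.05 to 4.65 gigabases of aligned reads of 150 bases. *Rbpms* was at 38.4 to 43.4 TPM in +/+, 31.3 to 33.1 TPM in Cre/+ and 19.1 to 24.2 TPM in Cre/Cre. Markers of cones, bipolar, amacrine, horizontal, Mueller glia and ganglion cells were all listed at 1 TPM or more, with the summed cone markers *Opn1sw*, *Arr3* and *Gnat2* between 1487 and 1713 TPM. Cre/Cre replicate 1 stood apart in that the ribosomal RNA gene *Rn45s* took 9.21% of its TPM, against 0.0827% to 0.336% elsewhere, so that less of the fixed total is left to all other genes in that library. *Xist*, the RNA of the inactive X chromosome, was at 516 to 585 TPM in 6 libraries and at 2.08 to 3.16 TPM in Cre/+ replicate 3, Cre/Cre replicate 1 and Cre/Cre replicate 3. All 3 +/+ libraries had high *Xist*. In bulk retinas, fewer cells of a type and less RNA per cell cannot be told apart. P-values measure the spread between mice of a genotype, drawn towards the spread of other genes of similar level.

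None of the 10 genes differed between the genotypes past the test. For *Fos*, *Junb*, *Egr1*, *Nr4a1*, *Arc*, *Ier2*, *Btg2* and *Dusp1* the same 4 knock-in libraries, 2 of Cre/+ and 2 of Cre/Cre, were the lowest of the 9, while the remaining library of each knock-in genotype was near or above the +/+ level. *Fosb* was slightly lower in every knock-in library than in any +/+ library, and *Npas4* showed neither pattern. Values are given below in the order of replicates 1, 2 and 3 of each genotype.

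*Fos*, *Fosb* and *Junb* encode subunits of the AP-1 transcription factor, in which a Fos protein pairs with a Jun protein. In mm10 they lie at chr12:85473890-85477274 (+), chr7:19302696-19310045 (-) and chr8:84976909-84978748 (-). *Fos* was at 46.6, 50.4 and 56.1 TPM in +/+, at 74.0, 28.9 and 24.4 TPM in Cre/+, and at 26.4, 94.4 and 22.0 TPM in Cre/Cre. Its 3 +/+ libraries lay close together and in the middle, with 1 library of each knock-in genotype above all of them and the other 2 below, so the groups overlapped. The log2 fold change, here and throughout on the log2(TPM + 1) scale, was -0.43 (SE 0.65, adjusted p = 0.841) in Cre/+ and -0.41 (SE 0.65, adjusted p = 0.959) in Cre/Cre against +/+. *Junb* was at 26.5, 30.7 and 34.6 TPM in +/+, 33.0, 17.8 and 18.5 TPM in Cre/+, and 15.3, 37.2 and 15.8 TPM in Cre/Cre. The same knock-in libraries were high and low as for *Fos*, and the groups overlapped again. Its log2 fold changes were -0.44 (SE 0.40, adjusted p = 0.702) in Cre/+ and -0.52 (SE 0.40, adjusted p = 0.877) in Cre/Cre.

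*Fosb* did not follow *Fos* and *Junb*. It was at 4.07, 3.64 and 3.72 TPM in +/+, 3.22, 3.27 and 2.77 TPM in Cre/+, and 2.97, 3.13 and 2.80 TPM in Cre/Cre. Every knock-in library lay below every +/+ library, and the Cre/+ and Cre/Cre libraries overlapped with each other. The mean was 3.81 ± 0.226 TPM (SD, n = 3) in +/+, 3.09 ± 0.278 TPM in Cre/+ and 2.97 ± 0.163 TPM in Cre/Cre. The log2 fold changes of -0.24 (SE 0.16, adjusted p = 0.587) and -0.28 (SE 0.16, adjusted p = 0.806) did not pass the test. These SEs draw on the spread of other genes, and the SD of *Fosb* itself within genotypes was only 0.078 on the log2 scale. Both knock-in genotypes were compared with the same +/+ libraries. The deposited mean coverage of *Fosb* was 3.20 to 5.07 reads per base, against 27.5 to 119 for *Fos* and 16.8 to 46.9 for *Junb*.

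*Egr1*, a zinc finger transcription factor that is used as a marker of neuronal activity, had the widest range of the 10 genes (chr18:34861207-34864956, +). It was at 32.8, 23.5 and 30.7 TPM in +/+, 70.7, 14.3 and 12.9 TPM in Cre/+, and 12.8, 127 and 13.1 TPM in Cre/Cre. Cre/Cre replicate 2 was 9.89-fold above Cre/Cre replicate 1, of the same genotype, and the 4 lowest libraries lay between 12.8 and 14.3 TPM. The SD exceeded the mean in both knock-in genotypes, at 32.6 ± 33.0 TPM in Cre/+ and 50.9 ± 65.7 TPM in Cre/Cre, against 29.0 ± 4.91 TPM in +/+ (n = 3 each). Its log2 fold changes of -0.26 and -0.02 had an SE of 1.06, and the 95% interval in Cre/Cre ran from -2.61 to 2.56.

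*Nr4a1* encodes an orphan nuclear receptor that needs no ligand and is induced by calcium and cAMP (chr15:101266846-101274794, +). It was at 61.0, 57.8 and 63.6 TPM in +/+, 60.9, 32.5 and 31.2 TPM in Cre/+, and 31.0, 91.1 and 24.1 TPM in Cre/Cre. Its +/+ libraries lay close together, 4 of the 6 knock-in libraries were well below them at 24.1 to 32.5 TPM, and the other 2 made the groups overlap. The log2 fold change of -0.61 (SE 0.53, adjusted p = 0.689) in Cre/+ was the largest in size of the 10 genes, and that in Cre/Cre was -0.56 (SE 0.53, adjusted p = 0.903).

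*Arc* and *Npas4* are the genes tied most closely to synaptic activity in neurons, *Arc* as a protein of dendrites that acts on the uptake of AMPA receptors and *Npas4* as a transcription factor induced by calcium entry. They lie at chr15:74669081-74672570 (-) and chr19:4984354-4989971 (-). *Arc* was the lowest of the 10 genes per length, at 1.29, 1.74 and 1.85 TPM in +/+, 1.61, 1.13 and 0.769 TPM in Cre/+, and 0.843, 1.96 and 0.897 TPM in Cre/Cre. At a mean coverage of 0.921 to 2.47 reads per base it still put the same 4 knock-in libraries lowest. The log2 fold changes of -0.29 (SE 0.24, adjusted p = 0.662) and -0.26 (SE 0.24, adjusted p = 0.894) are understated by the added 1 TPM at this level. *Npas4* was at 9.33, 7.51 and 11.3 TPM in +/+, 7.72, 9.41 and 9.38 TPM in Cre/+, and 8.99, 10.03 and 9.32 TPM in Cre/Cre. Its extremes were both +/+ libraries, and the 2 knock-in libraries that were high for *Fos* lay at opposite ends of the knock-in range. The log2 fold change of *Npas4* was -0.07 (95% interval -0.38 to 0.24) in Cre/+ and 0.02 (-0.29 to 0.33) in Cre/Cre.

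*Btg2* (chr1:134074865-134079155, -), an antiproliferative gene that recruits deadenylases to mRNAs, was the most abundant member per length, at 115, 115 and 123 TPM in +/+, 114, 105 and 109 TPM in Cre/+, and 111, 121 and 102 TPM in Cre/Cre. Its Cre/+ libraries all lay below its +/+ libraries, the nearest pair at 114.5 and 115.2 TPM, while Cre/Cre overlapped with +/+. The log2 fold change in Cre/+ was -0.11 (SE 0.08, adjusted p = 0.618). *Ier2* (chr8:84661331-84662852, -), a nuclear protein of the immediate early response, was at 27.5, 27.1 and 32.8 TPM in +/+, 28.9, 24.4 and 21.9 TPM in Cre/+, and 23.5, 43.4 and 20.9 TPM in Cre/Cre. In TPM both genes had the 4 lowest libraries that *Fos* had, with Cre/Cre replicate 1 at 111.1 and the next library at 114.5 TPM for *Btg2*. The log2 fold change of *Ier2* was -0.21 (SE 0.26, adjusted p = 0.786) in Cre/+ and -0.06 (SE 0.26, adjusted p = 0.988) in Cre/Cre.

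*Dusp1* encodes a phosphatase that inactivates MAP kinases and so acts back on the signal that induces it (chr17:26505591-26508472, -). It was at 46.1, 45.0 and 46.1 TPM in +/+, 49.0, 34.3 and 35.9 TPM in Cre/+, and 27.4, 62.2 and 23.2 TPM in Cre/Cre. The mean was 45.7 ± 0.661 TPM in +/+, 39.7 ± 8.06 TPM in Cre/+ and 37.6 ± 21.4 TPM in Cre/Cre (SD, n = 3 each). The +/+ libraries were the most alike and the Cre/Cre libraries the least, with Cre/Cre replicate 2 above every other library and replicates 1 and 3 below every other. The log2 fold change was -0.22 (SE 0.36, adjusted p = 0.861) in Cre/+ and -0.41 (SE 0.36, adjusted p = 0.896) in Cre/Cre.

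**Figure D1:**
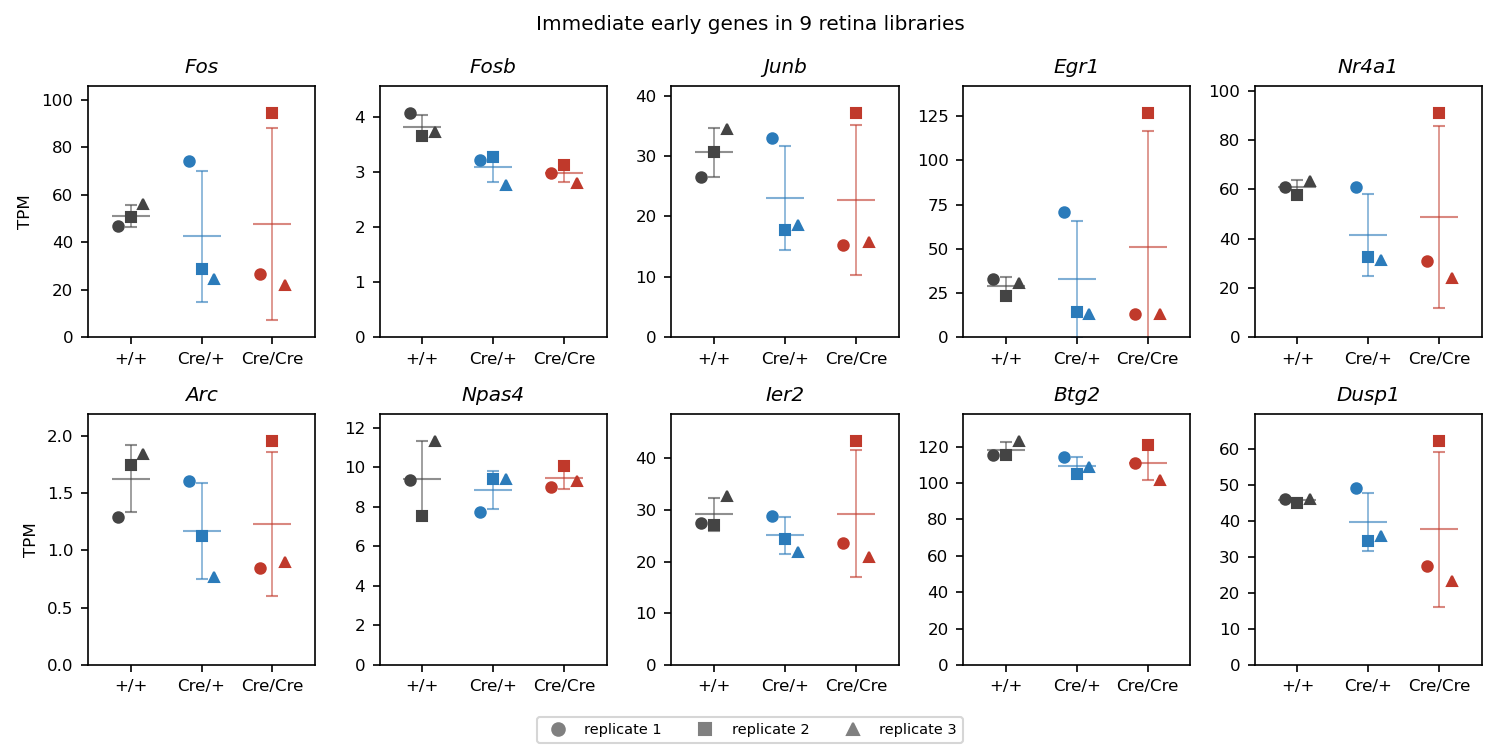
TPM (vertical axes, from 0) of the 10 genes in the 9 libraries by genotype. Points are libraries, with circles, squares and triangles for replicates 1, 2 and 3, and bars are mean ± SD of 3, cut at 0 for *Egr1*. Cre/Cre replicate 2 is the highest library in 7 panels, among them *Egr1* at 127 TPM, and *Npas4* and *Fosb* show other orders.

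Across the 10 genes, 0 passed an adjusted p of 0.05 (limma) in Cre/+ against +/+, where 0.00658% of the 15198 genes tested did, and 0 had an unadjusted p under 0.05, against 10.7% of all genes. In Cre/Cre against +/+ the counts were 0 at the adjusted p, with 0.00658% of all genes, and 0 at the unadjusted p, with 6.97% of all genes. Cre/Cre against Cre/+ gave 0 members at the adjusted p (0.0132% of all genes) and 0 at the unadjusted p (6.58%). The test of any difference among the genotypes gave 0 at the adjusted p (0.0132% of all genes) and 0 at the unadjusted p (8.63%). All 10 log2 fold changes were below 0 in Cre/+, where 7533 of the 15198 genes tested were. Their median was -0.25 against 0.0014 over all genes tested. In Cre/Cre, 9 of 10 were below 0, with *Npas4* above 0, where 8772 of the 15198 genes were below 0. The median was -0.27 against -0.02 over all genes. With single libraries left out, the median in Cre/+ ran from -0.40 without Cre/+ replicate 1 to -0.14 without Cre/+ replicate 3. That in Cre/Cre ran from -0.66 without Cre/Cre replicate 2 to -0.15 and -0.082 without Cre/Cre replicates 1 and 3. With *Xist* as a covariate the medians were -0.072 and 0.083. Only replicate 2 of Cre/Cre had high *Xist*, and it was the highest library for 7 members, so the second value rests largely on that library. Since both contrasts use the same +/+ libraries, and most of the members moved together, these counts are not independent of each other. Between Cre/Cre and Cre/+, 3 members were below 0 and 7 above, where 9001 of the 15198 genes were below 0. The values ran from -0.20 for *Dusp1* to 0.24 for *Egr1*, with adjusted p (limma) from 0.897 to 0.995.

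*Fosb* and *Btg2* were the 2 members whose Cre/+ libraries all lay below the +/+ libraries, where 10.3% of all genes tested did. In Cre/Cre this held for *Fosb* alone, 1 of 10 against 8.05% of all genes, and for 0 of 10 between Cre/Cre and Cre/+, against 7.23% of all genes.

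The 4 lowest libraries of *Fos*, *Junb*, *Egr1*, *Nr4a1*, *Arc*, *Ier2*, *Btg2* and *Dusp1* were Cre/+ replicates 2 and 3 and Cre/Cre replicates 1 and 3. That set was lowest for 399 of the 15198 genes tested (2.63%). It was picked as the most common set among the 10 members themselves, so the share is a description and no test of them. The step from the fourth lowest to the fifth lowest library was 1.78-fold for *Nr4a1*, 1.64-fold for *Egr1*, 1.61-fold for *Fos* and 1.43-fold for *Junb*, and only 1.03-fold for *Btg2*. The fourth lowest library of *Btg2* was Cre/Cre replicate 1, the one with much *Rn45s*. Its median-ratio size factor was 0.918, against 0.985 to 1.03 in the others. That shift is larger than the step of *Btg2*, so the place of *Btg2* in this order rests on TPM without that scaling. The exceptions were *Fosb*, in which Cre/Cre replicate 2 took the place of Cre/+ replicate 2, and *Npas4*. Each of the 4 low libraries was below all 3 +/+ libraries for 9 of the 10 members, *Npas4* apart. For these genes other than *Fosb* this follows from the way the set was picked, since it holds no +/+ library. The share of all genes tested below all 3 +/+ libraries was 29.7% and 26.9% in Cre/+ replicates 2 and 3, and 55.1% and 23.8% in Cre/Cre replicates 1 and 3. Cre/Cre replicate 2 was above all +/+ libraries for 7 members, against 30.5% of all genes tested, and Cre/+ replicate 1 for 3, *Fos*, *Egr1* and *Dusp1*, against 29.3%. The mean standardised level of the 10 genes, in SD units over the 9 libraries, was 0.41, 0.23 and 0.90 in +/+, 0.42, -0.53 and -0.77 in Cre/+, and -0.79, 1.26 and -1.12 in Cre/Cre.

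**Figure D2:**
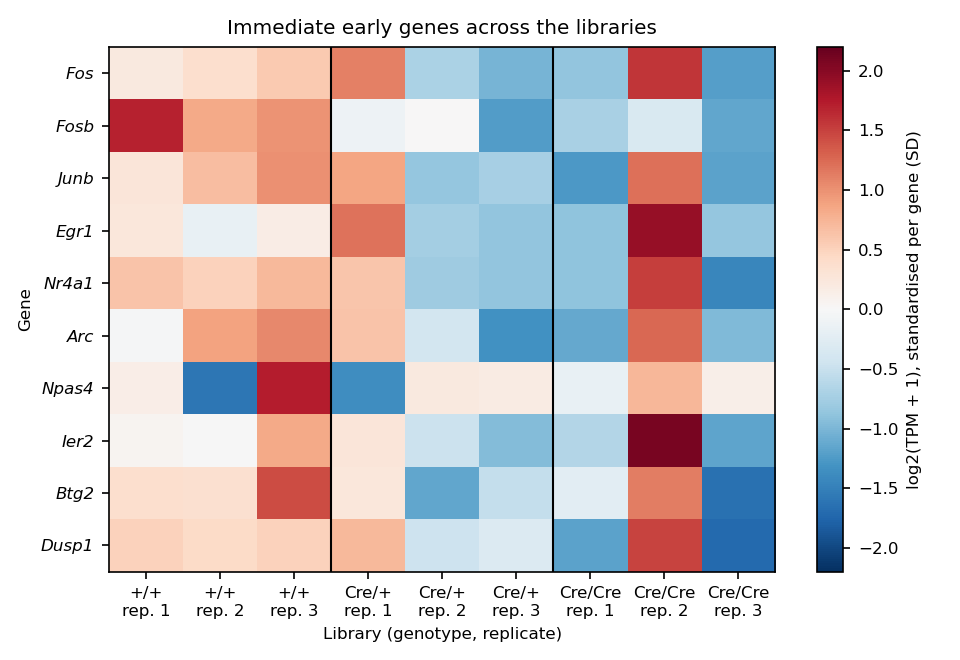
Levels of the 10 genes (vertical axis) in the 9 libraries (horizontal axis), as log2(TPM + 1) standardised per gene to a mean of 0 and an SD of 1, with red above and blue below the mean. Cre/+ replicates 2 and 3 and Cre/Cre replicates 1 and 3 are blue for 8 of the genes, Cre/Cre replicate 2 is red for all but *Fosb*, and the rows of *Fosb* and *Npas4* differ from the rest.

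As a description over the 9 libraries, the correlation of each gene with the mean standardised level of the other 9 members was 0.98 for *Nr4a1*, 0.95 for *Junb*, 0.94 for *Fos*, 0.93 for *Ier2*, 0.92 for *Dusp1*, 0.91 for *Arc*, 0.89 for *Btg2* and 0.84 for *Egr1*. It was 0.53 for *Fosb* and 0.08 for *Npas4*. In TPM without median-ratio scaling, *Btg2* thus followed the other genes while it moved only 1.21-fold from its lowest to its highest library. *Egr1* moved 9.89-fold, *Fos* 4.29-fold and *Nr4a1* 3.78-fold. The points are the same 9 libraries for every gene and fall into a low set of 4 and the rest.

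The spread between libraries of a genotype was taken as the SD of log2(TPM + 1) about the genotype means, with 6 degrees of freedom. It was 1.32 for *Egr1*, above 99.6% of the genes tested, 0.81 for *Fos* (98.9%), 0.65 for *Nr4a1* (98.0%), 0.50 for *Junb* (96.5%) and 0.46 for *Dusp1* (95.9%). *Ier2* at 0.35 and *Arc* at 0.29 had percentiles of 92.6 and 89.1, and *Npas4* at 0.18 one of 72.7. The spread depends on the level, and the median SD was 0.26 over 1849 genes at the level of *Arc* (1 to 2 on the log2 scale) and 0.16 over 1965 genes at that of *Npas4* (3 to 4), close to the values of these 2 genes. *Btg2* and *Fosb* spread less than most genes of all levels, with SDs of 0.086 and 0.078 and percentiles of 17.4 and 11.9. At the level of *Btg2* (6 to 7) the median SD was 0.10 over 2166 genes, near its value. At that of *Fosb* (2 to 3) it was 0.21 over 1607 genes, well above its value. The median of the 10 genes was 0.40, against 0.13 over all genes tested, and 0.20 without Cre/Cre replicate 2. *Junb*, *Egr1* and *Ier2* lay at a level of 4 to 5 on the log2 scale. There the median SD was 0.13 and 24 of 2767 genes reached 0.5. *Egr1* was among the 24, while *Junb*, at 0.4999, and *Ier2* were not.

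**Figure D3:**
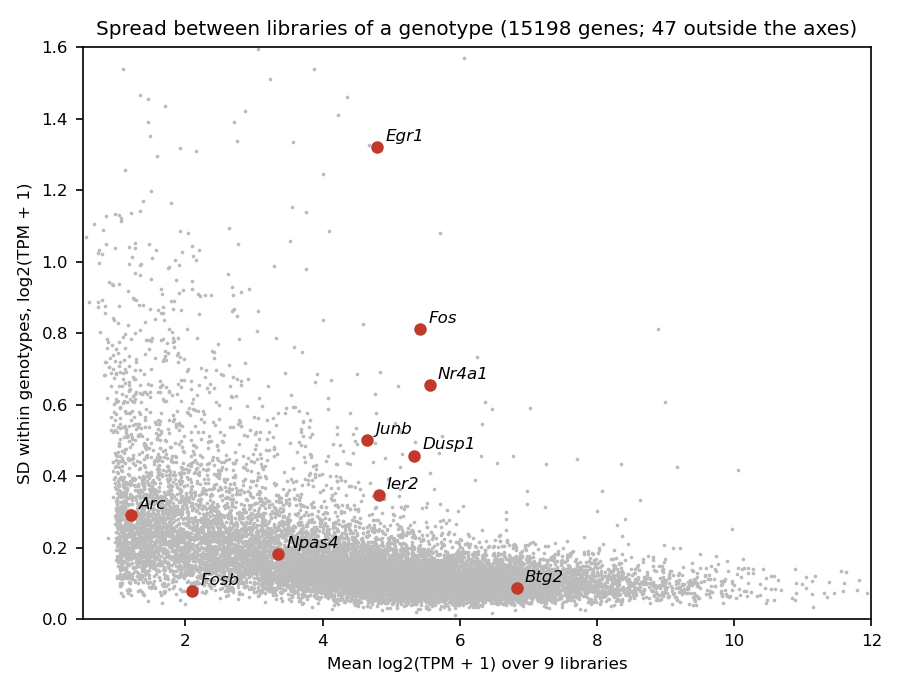
SD of log2(TPM + 1) within genotypes (vertical axis) against mean log2(TPM + 1) over 9 libraries (horizontal axis) for the 15198 genes tested in grey, 47 of which lie outside the axes, with the 10 immediate early genes in red. *Egr1*, *Fos* and *Nr4a1* stand high above genes of similar level, and *Btg2* and *Fosb* lie within the grey cloud.

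Cre/+ replicate 1 and Cre/Cre replicate 2 were the libraries highest for *Egr1* and *Fos*. Leaving out either gave larger fold changes in size for most of the genes. That direction follows from the choice, since each was the highest library of its genotype for most members. With another single library left out, *Egr1* reached 0.15 in Cre/+ and 0.52 in Cre/Cre against +/+. Without Cre/Cre replicate 2, the log2 fold change in Cre/Cre against +/+ was -1.13 for *Nr4a1*, -1.09 for *Egr1*, -1.05 for *Fos*, -0.93 for *Junb*, -0.83 for *Dusp1*, -0.48 for *Arc*, -0.38 for *Ier2* and -0.15 for *Btg2*. Without Cre/+ replicate 1, that in Cre/+ against +/+ was -1.03 for *Egr1*, -0.91 for *Fos*, -0.91 for *Nr4a1*, -0.72 for *Junb* and -0.37 for *Dusp1*. *Fosb* moved little, to -0.31 and -0.26, and still 0 members passed the adjusted p in either comparison. The smallest adjusted p was that of *Dusp1* without Cre/Cre replicate 2, at 0.0522, and over all alternatives it ran from there to 0.999 in that comparison. Neither library is known to be faulty, and leaving them out is not a correction.

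**Figure D4:**
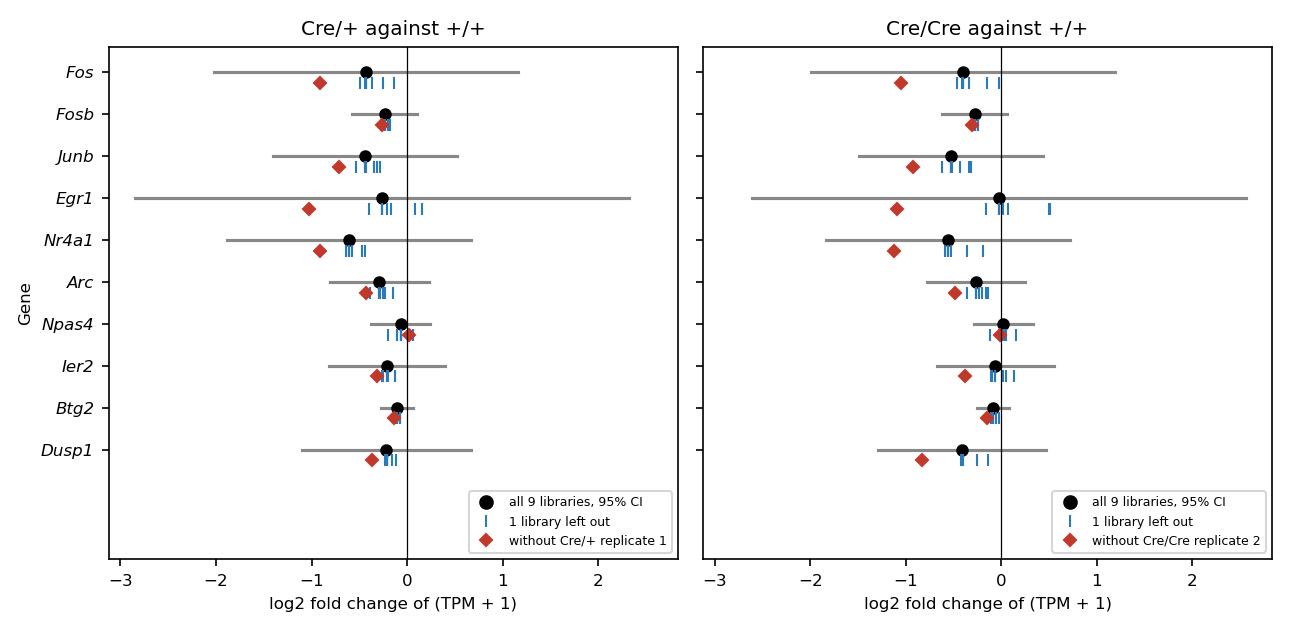
Log2 fold change of (TPM + 1) (horizontal axis) of the 10 genes (vertical axis) in Cre/+ and Cre/Cre against +/+. Black points and grey lines are the estimate and 95% interval with all 9 libraries, blue ticks the estimates with 1 library left out, and red diamonds those without Cre/+ replicate 1 or Cre/Cre replicate 2. All grey lines cross 0, and the diamonds of *Fos*, *Egr1*, *Nr4a1* and *Junb* lie between -1.13 and -0.72.

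Other properties of the libraries moved with this order in part. Of the 4 low libraries, Cre/+ replicate 3 and Cre/Cre replicates 1 and 3 were those with *Xist* at 3.16 TPM or less, while Cre/+ replicate 2, also low, had *Xist* at 534 TPM. With *Xist* as a covariate, 3 of the 10 log2 fold changes in Cre/+ and 7 in Cre/Cre turned from below to above 0, *Egr1* to 0.46 and 1.47 and *Fos* to 0.024 and 0.53. *Fosb* stayed below 0 in both and 0 members passed the adjusted p. The 3 libraries with low *Xist* were all knock-in libraries, so no comparison with +/+ can be made among them. In Cre/Cre only replicate 2 had high *Xist*, so the Cre/Cre values with this covariate rest largely on that library. Among the 6 with high *Xist*, *Fosb* was at 3.64 to 4.07 TPM in +/+, at 3.22 and 3.27 TPM in 2 Cre/+ libraries and at 3.13 TPM in 1 Cre/Cre library, and *Fos* was at 46.6 to 56.1, at 74.0 and 28.9, and at 94.4 TPM. Cre/Cre replicate 2, the highest library, had the summed lens markers *Cryaa*, *Mip* and *Lim2* at 484.6 TPM, with *Lim2* listed at 0, against 70.6 to 97.1 TPM in +/+, 7.45 to 71.4 TPM in Cre/+ and 30.0 to 112 TPM in the other Cre/Cre libraries. Cre/+ replicate 1 had the pigment epithelium markers *Rpe65*, *Best1* and *Ttr* at 69.0 TPM, against 13.2 to 42.7 TPM elsewhere. Summed blood markers were 1.47 to 51.6 TPM in +/+, 1.68 to 90.0 TPM in Cre/+ and 82.2 to 254 TPM in Cre/Cre. The globin genes behind these sums disagreed, with *Hba-a1* at 250 TPM in Cre/Cre replicate 1 and at 0 in replicate 2, and *Hbb-bs* at 80.4 TPM in replicate 2 and at 0 in replicate 3. The summed ganglion cell markers *Rbpms*, *Thy1* and *Pou4f1* were at 406 to 410 TPM in +/+, 358 to 384 TPM in Cre/+ and 290 to 338 TPM in Cre/Cre, in order of genotype without overlap. That sum includes *Rbpms*, the edited locus, itself at 38.4 to 43.4 TPM in +/+ and 19.1 to 24.2 TPM in Cre/Cre. *Thy1* was at 342 to 344 TPM in +/+, 303 to 327 TPM in Cre/+ and 253 to 299 TPM in Cre/Cre. Its log2 fold change in Cre/Cre against +/+ was -0.31 (adjusted p = 0.450, limma). *Pou4f1* overlapped between +/+ and Cre/+. Of all genes tested, 10.3% were lower without overlap in Cre/+ against +/+. The shares were 8.05% in Cre/Cre against +/+ and 7.23% in Cre/Cre against Cre/+. In the paper, counts of RBPMS and POU4F1 positive cells did not differ significantly among the genotypes. Microglia markers (11.4 to 14.5 TPM), endothelium markers (30.2 to 38.9 TPM) and mural markers (10.2 to 14.3 TPM) differed less over the 9 libraries than the lens, pigment epithelium and blood sums. The part of these properties in the levels of the immediate early genes was not tested.

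Of 49 symbols of other immediate early and activity-regulated genes, 47 were listed and 42 tested, and 5 (*Fosl1*, *Egr2*, *Dusp2*, *Ptgs2* and *Myc*) had a mean under 1 TPM. None of the 42 passed the adjusted p in any contrast (limma). At an unadjusted p under 0.05, 8 were lower and 0 higher in Cre/+ against +/+, 10 were lower and 0 higher in Cre/Cre against +/+, and 3 were lower and 1 higher in Cre/Cre against Cre/+. Of all genes tested, 10.7%, 6.97% and 6.58% reached that p in either direction. By direction, 884 of the 15198 were lower and 744 higher, 819 lower and 240 higher, and 638 lower and 362 higher. The median log2 fold change was -0.10 in Cre/+ against +/+, with 31 of 42 below 0, and -0.19 in Cre/Cre against +/+, with 35 below 0. Between Cre/Cre and Cre/+ it was -0.07, with 26 below 0, against -0.03 over all genes. Of the 15198 genes tested, 7533, 8772 and 9001 were below 0 in these contrasts, in the same order. Both contrasts with +/+ use the same +/+ libraries, and part of this list moved together, so these counts are not independent of each other. Outside the rule for named genes and picked after its values were seen, *Nr4a3*, a close relative of *Nr4a1*, was at 8.63, 5.54 and 6.04 TPM in +/+, 2.197, 2.987 and 2.997 TPM in Cre/+, and 3.05, 4.33 and 1.04 TPM in Cre/Cre. Its genotypes did not overlap with +/+, and its log2 fold changes of -1.04 (adjusted p = 0.377) and -1.11 (adjusted p = 0.542) did not pass the test.

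The 3 most abundant of these genes were *Arl4d*, a small GTPase-like protein, at a mean of 250 TPM over the 9 libraries, *Ier3* at 111 TPM and *Nrn1*, a neuritin of neurons, at 102 TPM. *Arl4d* was at 266, 272 and 295 TPM in +/+, at 229 to 244 TPM in Cre/+ and at 230 to 237 TPM in Cre/Cre, so that neither knock-in genotype overlapped with +/+. Its log2 fold changes were -0.22 (adjusted p = 0.377) and -0.25 (adjusted p = 0.542). *Ier3* and *Nrn1* had log2 fold changes of -0.11 and 0.08 in Cre/+ and of -0.19 and -0.24 in Cre/Cre.

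The genes of this list most like the 10 members over the 9 libraries were the phosphatase gene *Dusp5* (r = 0.90 with the mean standardised level of the members), the kinase gene *Sik1* (0.90), the pseudokinase gene *Trib1* (0.88), the clock gene *Per1* (0.86) and the kinase gene *Plk2* (0.85). *Sik1* was at 17.8, 15.3 and 20.3 TPM in +/+, 14.7, 10.2 and 11.8 TPM in Cre/+, and 11.5, 20.2 and 5.61 TPM in Cre/Cre. Its 4 lowest libraries were those of *Fos*, which were lowest for 5 of the 42 genes and for 2.63% of all genes tested. *Dusp5* ranged from 20.7 TPM in Cre/Cre replicate 1 to 37.3 TPM in Cre/Cre replicate 2. *Per1* was at 97.5, 95.6 and 103 TPM in +/+, 78.1, 68.4 and 65.4 TPM in Cre/+, and 74.2, 92.4 and 52.5 TPM in Cre/Cre, below every +/+ library in all 6 knock-in libraries (adjusted p = 0.409 and 0.655). An r of at least 0.8 was met by 5 of the 42 genes (11.9%) and by 247 of the 15188 genes tested outside the 10 members (1.63%). The list was not uniform, since *Klf4* had an r of -0.82 and 7 of the 42 were below 0.

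**Figure D5:**
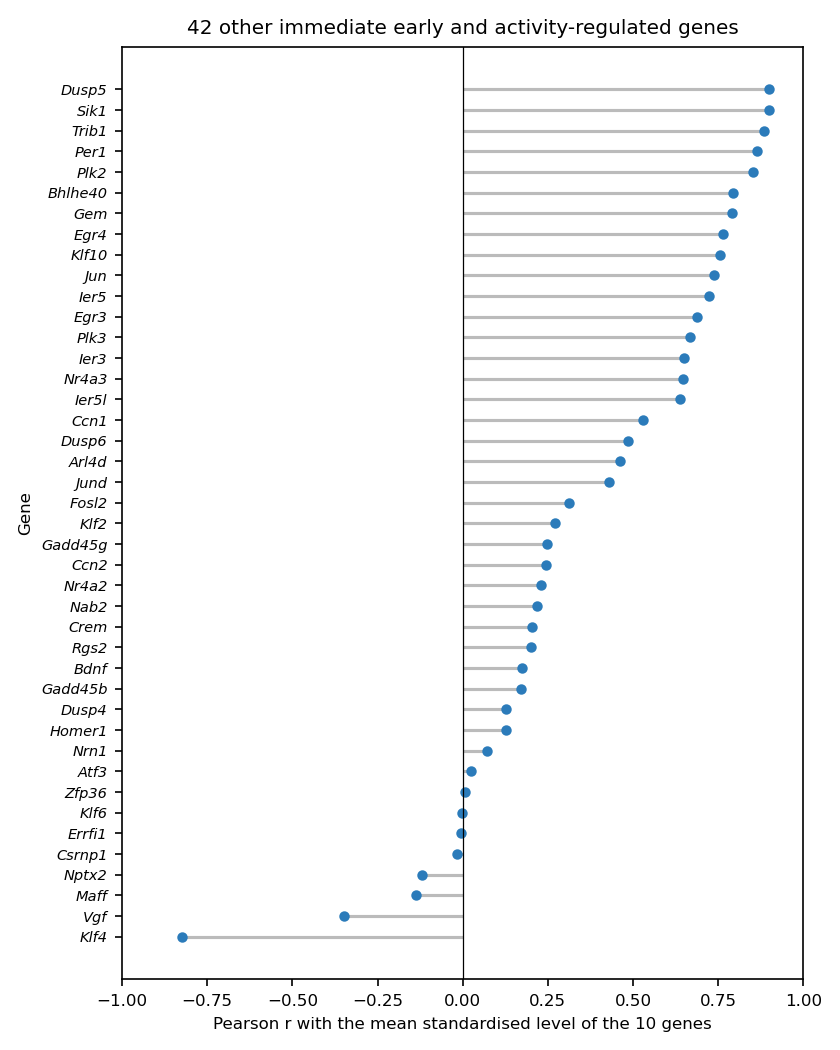
Pearson r over 9 libraries (horizontal axis, -1 to 1) of log2(TPM + 1) of each of 42 other immediate early and activity-regulated genes (vertical axis) with the mean standardised level of the 10 immediate early genes. The values run from -0.82 for *Klf4* to 0.90 for *Dusp5*, with 17 at 0.5 or above.

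Of 26 symbols for the upstream pathway, the kinases, cofactors and transcription factors that act on immediate early promoters, 24 were listed and tested and 0 passed the adjusted p in any contrast (limma). At an unadjusted p under 0.05, 3 were higher and 1 lower in Cre/+ against +/+, 1 was lower in Cre/Cre against +/+, and 0 reached it between Cre/Cre and Cre/+. Of all genes tested, 10.7%, 6.97% and 6.58% did so in either direction. Among the most abundant were *Mef2d*, a transcription factor, at 291 ± 10.1 TPM in +/+, 286 ± 22.6 TPM in Cre/+ and 259 ± 15.0 TPM in Cre/Cre, and the kinase gene *Camk2b* at 144 ± 6.57, 142 ± 2.48 and 145 ± 7.47 TPM (SD, n = 3 each).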

How the data were processed

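Bulk strand-specific poly(A) RNA-Seq of 9 whole-retina libraries at P42 was analysed. Per the submitters' processing notes, the authors used Trimmomatic, FastQC, HISAT2, SAMtools and StringTie with mm10, whose versions are not given in the sources used here, and tested read counts with DESeq2. Counts were not used here. The authors deposited 1 StringTie table per library, with TPM (scaled to the same total in every library), FPKM (fragments per length and depth, before that scaling) and coverage (mean reads per base). Depth was taken from the ratio of deposited coverage to deposited FPKM. No counting error can be had from such values, and the spread between 3 libraries, together with that of other genes of similar level, sets the precision.

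TPM was summed per gene name. The 15198 genes that averaged 1 TPM or more were fitted on log2(TPM + 1) with limma 3.58.1 in R 4.3.3, with a trended, robust prior and genotype as the only term, on all 9 libraries. P-values were adjusted over all genes tested by the Benjamini-Hochberg method, with a limit of 0.05. The test was checked on simulated data. Promoters came from a RefSeq table and were searched in Python 3.11.15, and matplotlib 3.10.9 drew the figures.

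The members, gene lists and tests were chosen with earlier results of these data known. Named genes are the 10 members, the 3 most abundant and the 5 most alike of the other immediate early genes, the 3 most abundant upstream genes, the 8 genes most like the members among all genes tested, and any gene of these lists that passed the test. An upstream gene of this rule and a cell type marker are not reported here. Alternatives were a pseudocount of 0.1, no filter, a replicate block, *Xist* as a covariate, FPKM, median-ratio scaling, no robust prior, only the genotypes compared, and each library left out.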

Additional observations from a re-analysis of the deposited data

How the results depend on the processing

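No member passed an adjusted p of 0.05 under any alternative. Of 504 log2 fold changes recomputed under the alternatives, 47 changed sign, and the cause was not tested. With *Xist* as a covariate, the values that turned above 0 were in Cre/+ against +/+ those of *Fos* (0.024), *Egr1* (0.46) and *Dusp1* (0.019). In Cre/Cre against +/+ they were those of *Fos* (0.53), *Junb* (0.0030), *Egr1* (1.47), *Nr4a1* (0.17), *Arc* (0.094), *Ier2* (0.34) and *Dusp1* (0.073), and between Cre/Cre and Cre/+ those of *Fosb* (0.0032), *Junb* (0.19) and *Dusp1* (0.054). With FPKM, *Npas4* was -0.021 in Cre/Cre against +/+ and *Btg2* -0.0055 between Cre/Cre and Cre/+, and *Arc* and *Fosb* gave no value, since their mean FPKM was under 1. With median-ratio scaling, *Egr1* was 0.0027 in Cre/Cre against +/+.

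With single libraries left out, the value in Cre/+ against +/+ ran from -1.03 to 0.15 for *Egr1* and from -0.20 to 0.065 for *Npas4*. In Cre/Cre against +/+ it ran from -1.09 to 0.52 for *Egr1*, from -0.11 to 0.16 for *Npas4* and from -0.38 to 0.14 for *Ier2*. Between Cre/Cre and Cre/+ it ran from -0.83 to 1.00 for *Egr1*, -0.61 to 0.51 for *Fos*, -0.49 to 0.19 for *Junb*, -0.52 to 0.42 for *Nr4a1*, -0.20 to 0.17 for *Arc*, -0.16 to 0.35 for *Ier2*, -0.041 to 0.083 for *Btg2* and -0.62 to 0.075 for *Dusp1*. The median SD of the 10 genes within genotypes, 0.40, ran from 0.20 without Cre/Cre replicate 2 to 0.44.

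The replicate block left the log2 fold changes as they were, *Fos* at -0.41 in Cre/Cre against +/+ with an adjusted p of 0.970 (limma), over a range of 0.656 to 0.999 under the alternatives, and called 0 members. Whether the numbers pair the libraries is not known. The deviations of same-numbered libraries correlated at -0.12 to 0.13 over 9 pairs, which cannot exclude a shared litter or day. The files used give no counts, so the counting error of *Arc*, the lowest gene, is unknown.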

Other observations

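The 8 genes outside the members most like them over the 9 libraries, among 15188, were *Rpl24* (r = 0.96 with the mean standardised level of the members), *Mast2* (0.96), *Fam174a* (0.96), *Ndufs6* (0.95), *Rhobtb1* (0.95), *Rpl19* (0.94), *Tmem256* (0.94) and *Gm2061* (0.93). No other immediate early gene of the list was among them, and 29 genes had an r of at least 0.9. *Rpl24* and *Rpl19*, genes of ribosomal proteins, moved 1.24-fold and 1.196-fold from their lowest to their highest library, where *Fos* moved 4.29-fold. *Mast2*, a kinase gene, was at 132, 124 and 135 TPM in +/+, 133, 104 and 108 TPM in Cre/+, and 105, 137 and 104 TPM in Cre/Cre, with the same 4 lowest libraries as *Fos*.

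Of 10 genes known to respond to heat and tissue stress, *Hspa1a* and *Hspa1b* among them, 1 (*Atf3*) also stands in the list of other immediate early genes. Their summed TPM was 576, 610 and 656 in +/+, 569, 663 and 613 in Cre/+, and 633, 602 and 619 in Cre/Cre, lowest in Cre/+ replicate 1 and highest in Cre/+ replicate 2. None of the 10 passed the adjusted p in any contrast (limma). At an unadjusted p under 0.05 the counts were 0 in Cre/+ against +/+, 4 in Cre/Cre against +/+ (1 higher, 3 lower) and 1 between Cre/Cre and Cre/+. Of all genes tested, 10.7%, 6.97% and 6.58% reached it in either direction.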
